A study of Mus musculus with 6 samples.

Results

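Epithelial ion and water transport genes were compared between knock-out and wild-type tumoroids of mouse intestinal adenoma. The set holds the protein-coding genes whose symbol in the GENCODE annotation of GRCm38 names a family of bicarbonate transporters (Slc4), sodium-calcium exchangers (Slc8), sodium-proton exchangers (Slc9), cation-chloride cotransporters (Slc12), urea transporters (Slc14), anion exchangers (Slc26), sodium pump subunits (Atp1a and Atp1b), aquaporins (Aqp), CLC chloride channels and exchangers (Clcn) or the epithelial sodium channel (Scnn1), plus Cftr, Ano1 and Best2. The rule found 81 of the 49585 genes in the count tables. The names Slc4a1ap, Slc9a3r1 and Slc9a3r2 also match it, although these 3 genes encode adaptor proteins and not transporters.

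Tumoroids are small hollow or solid structures that tumour cells form in a gel of basement membrane. These came from intestinal adenomas of C57BL/6 mice. All of the tumoroids were labelled APC min/+, the Min allele of Apc over a normal copy. They also carried Villin-Cre, a recombinase gene under a promoter active in intestinal epithelium. Whether the tumoroid cells kept the normal copy of Apc was not tested. The 3 knock-out libraries came from cells with both alleles of IKKa floxed (IKKa FL/FL), and the 3 wild-type libraries from cells with unmodified IKKa (IKKa +/+), so the Cre and the Apc allele were shared. IKKa, encoded by Chuk, is a kinase of the pathway that activates NF-kB. Both genotypes were grown in Matrigel in a medium with a ROCK inhibitor, Noggin, R-spondin, EGF and basic FGF. The libraries are labelled as biological replicates, and whether separate mice stand behind them is not said, so the p-values cover a spread that may be technical.

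Intestinal epithelium moves salt in both directions and water follows. Secretory cells load chloride through the cotransporter Nkcc1 (Slc12a2) on the basolateral side and release it through the apical channel Cftr, while absorptive cells take up sodium and chloride through apical sodium-proton exchangers that work beside the anion exchanger Dra (Slc26a3). The sodium pump keeps the sodium gradient that drives both routes, bicarbonate transporters set cell pH and feed bicarbonate secretion, and aquaporins let water through the membranes.

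Library depth ranged from 20749747 to 31875723 counts. Chuk averaged 29.4 ± 5.28 CPM in knock-out and 101 ± 5.21 CPM in wild-type libraries (CPM, counts scaled to library size with TMM factors; mean ± SD, n = 3 each), a log2 fold change of -1.77 ± 0.12 (SE, adjusted p = 8.6e-08). Xist had 6 counts over the knock-out and 95406 over the wild-type libraries, and the Y-linked gene Eif2s3y had 7164 counts over the knock-out and 0 over the wild-type libraries, so genotype and sex cannot be told apart. Knock-out replicate 2 stood apart from its group, since a chi-square per degree of freedom was 36.4 and 37 when it was set against replicates 1 and 3, and 5.64 between those. Genes of chromosome 5 had a median log2 fold change of 0.388 over 950 genes, against -0.02 on the other autosomes. Mitochondrial genes took 2.15% to 3.46% of the counts in knock-out and 6.18% to 7.58% in wild-type libraries. Markers of differentiated cells also moved with genotype. The summed CPM of 7 goblet cell markers was 44.6 to 77.9 in knock-out and 1117 to 1153 in wild-type libraries, that of 6 Paneth cell markers was 5.61 to 15.7 and 575.5 to 745.3, that of 10 small-intestinal enterocyte markers was 12.4 to 17.5 and 102.7 to 123.8, and that of 5 enteroendocrine markers was 0 to 0.839 and 16.4 to 33.5, in the same order. All 8 colonocyte markers, which include the member genes Slc26a3 and Aqp8, were at 0 in the knock-out libraries, against a sum of 3.94 to 5.39 CPM in the wild-type libraries. Of these 8, 3 (Saa1, Aqp8 and Car4) were at 0 in the wild type as well, and 2 were tested. The member Slc26a3 alone had 2.23 to 3.24 CPM in the wild-type libraries, so this list is largely that gene counted again. The 8 general epithelial markers summed to 10100 to 11840 CPM in knock-out and 7675 to 8316 CPM in wild-type libraries, with 3 of them higher (Krt8, Krt18 and Krt19) and 4 lower (Epcam, Vil1, Cdx1 and Cdx2), and Cdx1 was at 0 in the knock-out. Tuft cell markers summed to 75.9 to 108.8 CPM in knock-out and 9.51 to 12.01 CPM in wild-type libraries, a sum carried by Avil, since of 4 tested markers 1 was higher (Avil) and 2 were lower (Trpm5 and Pou2f3), with Gnat3 at 0 in the knock-out. Of markers of cells outside the epithelium, 7 immune genes summed to 23.1 to 23.7 CPM in knock-out and 3.72 to 6.97 CPM in wild-type libraries with Cd3e at 0 throughout. The 5 endothelial markers summed to 0.299 to 0.442 CPM in knock-out and 9.93 to 14.5 CPM in wild-type libraries, with Tek lower and Kdr and Emcn at 0 throughout. The 4 smooth muscle markers summed to 0 to 0.316 CPM in knock-out and 9.13 to 17.9 CPM in wild-type libraries, with Acta2 lower. The 6 fibroblast markers summed to 0.452 to 0.884 CPM in knock-out and 0 to 0.339 CPM in wild-type libraries. The part of these shifts in the results below was not tested. In bulk RNA, fewer cells of a type and less RNA per cell cannot be told apart.

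Of the 81 genes, 13 had no count in any library, 19 were counted but stayed under the filter on low counts, and 49 were tested. In the knock-out 21 of these were higher and 18 were lower at an adjusted p under 0.05, and 10 did not pass (edgeR quasi-likelihood test, adjusted over the 13759 genes tested). Of all genes tested, 30.4% were higher and 27.0% were lower by the same rule. These are also the shares to set beside the count of each family below. At a fitted change of at least 2-fold, 16 members were higher and 12 were lower, where the background was 15.2% and 9.83% of genes tested. Since 8 of the 49 tested genes met the filter through 1 genotype only (3 through the knock-out, among them Slc8a1 and Slc9a9, and 5 through the wild type, Slc12a8, Slc14a1, Slc26a3, Slc9a3 and Aqp4), these counts describe the set and are not read as enrichment. The median fitted log2 fold change of the tested members was 0.058, against 0.002 for all genes, so the set did not shift one way. All 6 tested members on chromosomes 5 and X were higher, and the 43 on other chromosomes split into 15 higher and 18 lower. Without knock-out replicate 2 the counts were 23 higher and 18 lower.

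**Figure D1:**
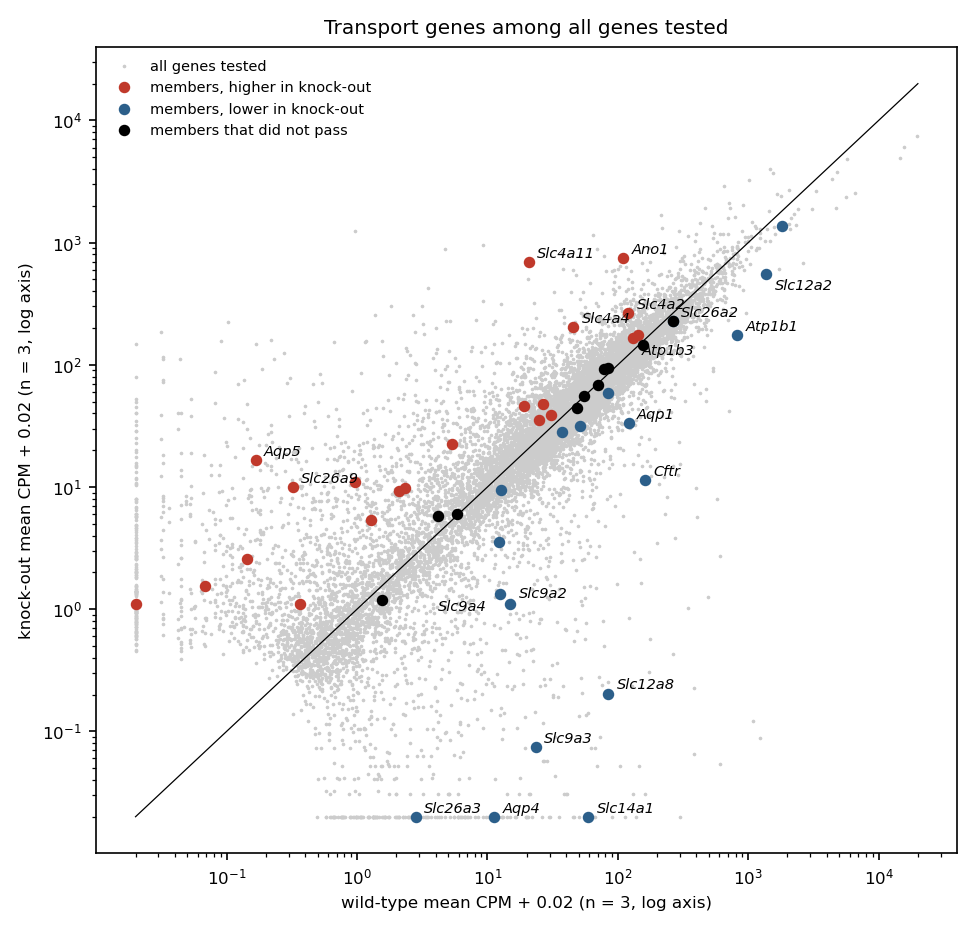
Mean level of every gene tested in the knock-out (vertical axis) against the wild-type libraries (horizontal axis), in CPM with 0.02 added, on log axes, n = 3 per genotype. Grey points are the 13759 genes tested, red points are the 21 members higher in the knock-out, blue points the 18 lower and black points the 10 that did not pass, and the line marks equal levels. Slc14a1, Aqp4 and Slc26a3 lie on the floor of the knock-out axis, and Slc4a11 and Ano1 lie far above the line.

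Of the chloride exit channels, Cftr fell and Ano1 rose. Cftr, the cAMP-gated chloride and bicarbonate channel of the apical membrane (GRCm38 chromosome 6, 18170687 to 18322768, plus strand), had 15.6, 7.19 and 11.3 CPM in the knock-out libraries, against 174, 165 and 149 CPM in the wild-type libraries. Every knock-out value lay far below every wild-type value. Cftr fell 14.2-fold, a log2 fold change of -3.83 ± 0.19 (SE, adjusted p = 4.86e-09), and the value without knock-out replicate 2, its lowest library, was -3.62. Ano1, a calcium-activated chloride channel (chromosome 7, 144588549 to 144751974, minus strand), had 787, 664 and 807 CPM in the knock-out libraries, against 107, 122 and 101 CPM in the wild-type libraries. It rose 6.84-fold with no overlap (log2 2.77 ± 0.10, adjusted p = 3.91e-10). Best2, a bestrophin channel of bicarbonate-secreting colonic cells, had 2 counts in 1 knock-out library and none elsewhere. Set per kilobase of exon, Cftr made up 1.57%, 0.863% and 1.11% of the summed Cftr and Ano1 level in the knock-out libraries, against 56.6%, 52.1% and 54.2% in the wild-type libraries. The sum itself was 122.0 ± 12.8 CPM per kilobase in knock-out and 38.6 ± 2.91 in wild-type libraries (SD, n = 3 each). An exact two-sided permutation test of such shares cannot go below p = 0.1 with 3 libraries against 3.

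Among the cation-chloride cotransporters, which move chloride together with sodium or potassium, 6 of 9 members were tested, with 3 higher and 3 lower. Slc12a2, the Nkcc1 cotransporter that loads secretory cells with chloride, had 621, 462 and 587 CPM in the knock-out libraries, against 1461, 1384 and 1279 CPM in the wild-type libraries. It fell 2.47-fold (log2 -1.30 ± 0.10, adjusted p = 5.3e-07) and was still the most abundant cotransporter per kilobase in both genotypes, at 70.7 ± 4.55% of the family's level in knock-out and 79.4 ± 1.56% in wild-type libraries. Slc12a8, a family member reported as a transporter of nicotinamide mononucleotide in mouse gut, was nearly absent from the knock-out. It had 0.347, 0.0749 and 0.129 CPM in the knock-out libraries, 17 counts in all, against 81.9, 82.7 and 88.0 CPM in the wild-type libraries. The fitted fall was 433-fold (log2 -8.76 ± 0.52, adjusted p = 5.19e-12), and -9.60 without knock-out replicate 1, which holds most of those counts.

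The potassium-chloride cotransporters let chloride out of the cell. Slc12a7 (Kcc4) fell, with 53.4, 67.5 and 56.6 CPM in knock-out and 82.4, 88.4 and 81.2 CPM in wild-type libraries (log2 -0.51 ± 0.10, adjusted p = 8.43e-04). Slc12a4 (Kcc1) rose, with 8.68, 8.65 and 10.3 CPM in knock-out and 2.75, 1.21 and 2.27 CPM in wild-type libraries (log2 2.09 ± 0.27, adjusted p = 1.52e-05). Neither gene had overlapping genotypes. Slc12a9, a cotransporter-interacting protein on chromosome 5, had 46.1, 50.8 and 41.8 CPM in knock-out and 18.5, 18.1 and 20.6 CPM in wild-type libraries (log2 1.27 ± 0.11, adjusted p = 1.12e-06). Slc12a1, the Nkcc2 cotransporter of the kidney, was under the filter with 33 counts over the knock-out and 0 over the wild-type libraries, at least 9.53-fold higher against a floor of 3 counts over the genotype. Slc12a3 and Slc12a5 also stayed under the filter.

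The sodium pump is a pair of an alpha subunit, which splits ATP, and a beta subunit, which carries the pair to the membrane. Of 8 subunit genes 4 were tested, with 2 higher and 2 lower. Atp1b1, the main beta subunit of most epithelia (chromosome 1, 164437109 to 164458355, minus strand), had 176, 184 and 162 CPM in the knock-out libraries, against 800.2, 809 and 864 CPM in the wild-type libraries, a 4.74-fold fall (log2 -2.24 ± 0.08, adjusted p = 2.65e-10). Atp1b3, another beta subunit, moved the other way, with 166, 174 and 157 CPM in knock-out and 129, 128 and 137 CPM in wild-type libraries (log2 0.34 ± 0.07, adjusted p = 0.00208). Per kilobase, Atp1b1 made up 45.2%, 45.1% and 44.4% of the beta subunit level in the knock-out libraries, against 82.8%, 83.1% and 83.0% in the wild-type libraries, with Atp1b3 making up nearly all of the rest. Atp1b1 shares 575 exon bases with Nme7 on the opposite strand, which averaged 25.9 CPM in knock-out and 20.0 CPM in wild-type libraries. The summed beta level was 125.8 ± 7.17 CPM per kilobase in knock-out and 322.5 ± 13.1 in wild-type libraries. Atp1b2 and Atp1b4 stayed under the filter, and Atp1a4 had no count.

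Of the 10 bicarbonate transporter genes of the Slc4 family, 7 were tested, and 6 rose while none fell. Over all genes tested 30.4% were higher and 27.0% lower, and the count for these 7 is not read as enrichment. Slc4a11, a relative of the bicarbonate transporters that has been described to carry protons and is known from the corneal endothelium (chromosome 2, 130684113 to 130697519, minus strand), had 662, 723 and 699 CPM in the knock-out libraries, against 18.3, 27.3 and 16.8 CPM in the wild-type libraries. The rise was 33.8-fold (log2 5.08 ± 0.14, adjusted p = 6.31e-11). Slc4a4, the electrogenic sodium-bicarbonate cotransporter Nbce1 of the basolateral membrane, had 216, 171 and 224 CPM in the knock-out libraries, against 45.0, 49.2 and 41.9 CPM in the wild-type libraries (log2 2.17 ± 0.11, adjusted p = 7.97e-09). Slc4a2, the chloride-bicarbonate exchanger Ae2, had 263, 246 and 280.2 CPM in the knock-out libraries, against 117, 126 and 119.6 CPM in the wild-type libraries (log2 1.13 ± 0.08, adjusted p = 1.04e-07). Both Slc4a4 and Slc4a2 lie on chromosome 5, which had a median log2 fold change of 0.388, and the chromosome's part in these rises was not tested. Slc4a2 shares 1141 exon bases with Fastk on the opposite strand, which averaged 69.1 CPM in knock-out and 71.5 CPM in wild-type libraries.

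Among the other Slc4 genes, Slc4a3, Slc4a8 and Slc4a9 rose. Slc4a3, the exchanger Ae3, had 10.95, 9.43 and 12.2 CPM in knock-out and 0.536, 1.84 and 0.446 CPM in wild-type libraries (log2 3.66 ± 0.44, adjusted p = 1.6e-06), and the log2 value was 4.45 without wild-type replicate 2, the highest of its group. Slc4a8, a sodium-driven chloride-bicarbonate exchanger, had 4.20, 5.95 and 6.03 CPM in knock-out and 1.47, 1.21 and 1.11 CPM in wild-type libraries (log2 2.07 ± 0.32, adjusted p = 6.1e-05). Slc4a9 was the member nearest to the threshold among those that passed, with 0.758, 0.786 and 1.71 CPM in knock-out and 0.502, 0.0968 and 0.446 CPM in wild-type libraries (log2 1.54 ± 0.63, adjusted p = 0.0391), and it lost the call under 7 alternatives, among them without knock-out replicate 3 (adjusted p = 0.206) or any 1 wild-type replicate (0.0615, 0.12 and 0.0792 without replicates 1, 2 and 3). Slc4a7, the electroneutral sodium-bicarbonate cotransporter Nbcn1, had 107, 70.1 and 102 CPM in knock-out and 81.5, 85.1 and 68.6 CPM in wild-type libraries, and the genotypes overlapped through knock-out replicate 2 (log2 0.25 ± 0.14, adjusted p = 0.154). Without that library its log2 value was 0.39 with an adjusted p of 9.03e-04. Slc4a1, the exchanger of red blood cells, had 6 counts, all in wild-type libraries, and Slc4a5 and Slc4a10 had none. Slc4a11 made up 70.4 ± 2.83% of the family's level per kilobase in knock-out and 14.6 ± 2.65% in wild-type libraries, where Slc4a2 led with 51.4 ± 2.96%. The family sum was 197 ± 5.25 CPM per kilobase in knock-out and 28.3 ± 2.43 in wild-type libraries.

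Of 9 sodium-proton exchangers, 8 were tested, with 3 higher, 3 lower and 2 that did not pass. Slc9a2, Slc9a3 and Slc9a4, which are known from gut and stomach epithelium, were the ones that fell. Slc9a3 (Nhe3), the main route of apical sodium uptake, had 0, 0 and 0.161 CPM in the knock-out libraries, 5 counts in all, against 24.2, 25.1 and 21.1 CPM in the wild-type libraries. The fitted fall was 388-fold (log2 -8.60 ± 1.28, adjusted p = 9.9e-11), and the log2 value was -8.0 without knock-out replicate 1. Knock-out replicate 3 was the single knock-out library with counts. Without it the knock-out had no count of Slc9a3, so the fitted -12.31 is not an estimate of the fold. Slc9a2 (Nhe2), an apical exchanger, had 0.663, 1.46 and 1.13 CPM in knock-out and 13.99, 18.1 and 12.7 CPM in wild-type libraries, a 13.8-fold fall (log2 -3.79 ± 0.34, adjusted p = 1.56e-07). Slc9a4 (Nhe4), a basolateral exchanger of gastric and other epithelia, had 1.42, 1.61 and 0.903 CPM in knock-out and 14.2, 11.4 and 11.96 CPM in wild-type libraries, a 9.68-fold fall (log2 -3.27 ± 0.28, adjusted p = 1.85e-07).

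The other exchangers rose or did not pass. Slc9a8 (Nhe8), found in Golgi and apical membranes, had 54.1, 55.3 and 56.2 CPM in knock-out and 56.8, 52.2 and 54.7 CPM in wild-type libraries (log2 0.01 ± 0.08, adjusted p = 0.895). Its values overlapped between genotypes, and its replicates lay close together. Slc9a5 (Nhe5), best known from neurons, had 7.73, 13.2 and 8.65 CPM in knock-out and 2.48, 3.05 and 1.41 CPM in wild-type libraries (log2 2.10 ± 0.33, adjusted p = 7.58e-05), with the high value in knock-out replicate 2 and a log2 value of 1.83 without it. Slc9a9 (Nhe9), an endosomal exchanger, rose at a low level, with 1.80 to 3.09 CPM in knock-out and 0.0484 to 0.186 CPM in wild-type libraries (adjusted p = 8.45e-06). Slc9a7, on chromosome X, was under the filter. Summed per kilobase, the family stood at 28.7 ± 0.519 CPM in knock-out and 33.6 ± 0.506 in wild-type libraries. Within it Slc9a3 made up 0.0346 ± 0.0598% in knock-out and 12.7 ± 1.19% in wild-type libraries, and Slc9a5 made up 6.57 ± 1.98% and 1.31 ± 0.483%, in the same order.

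**Figure D2:**
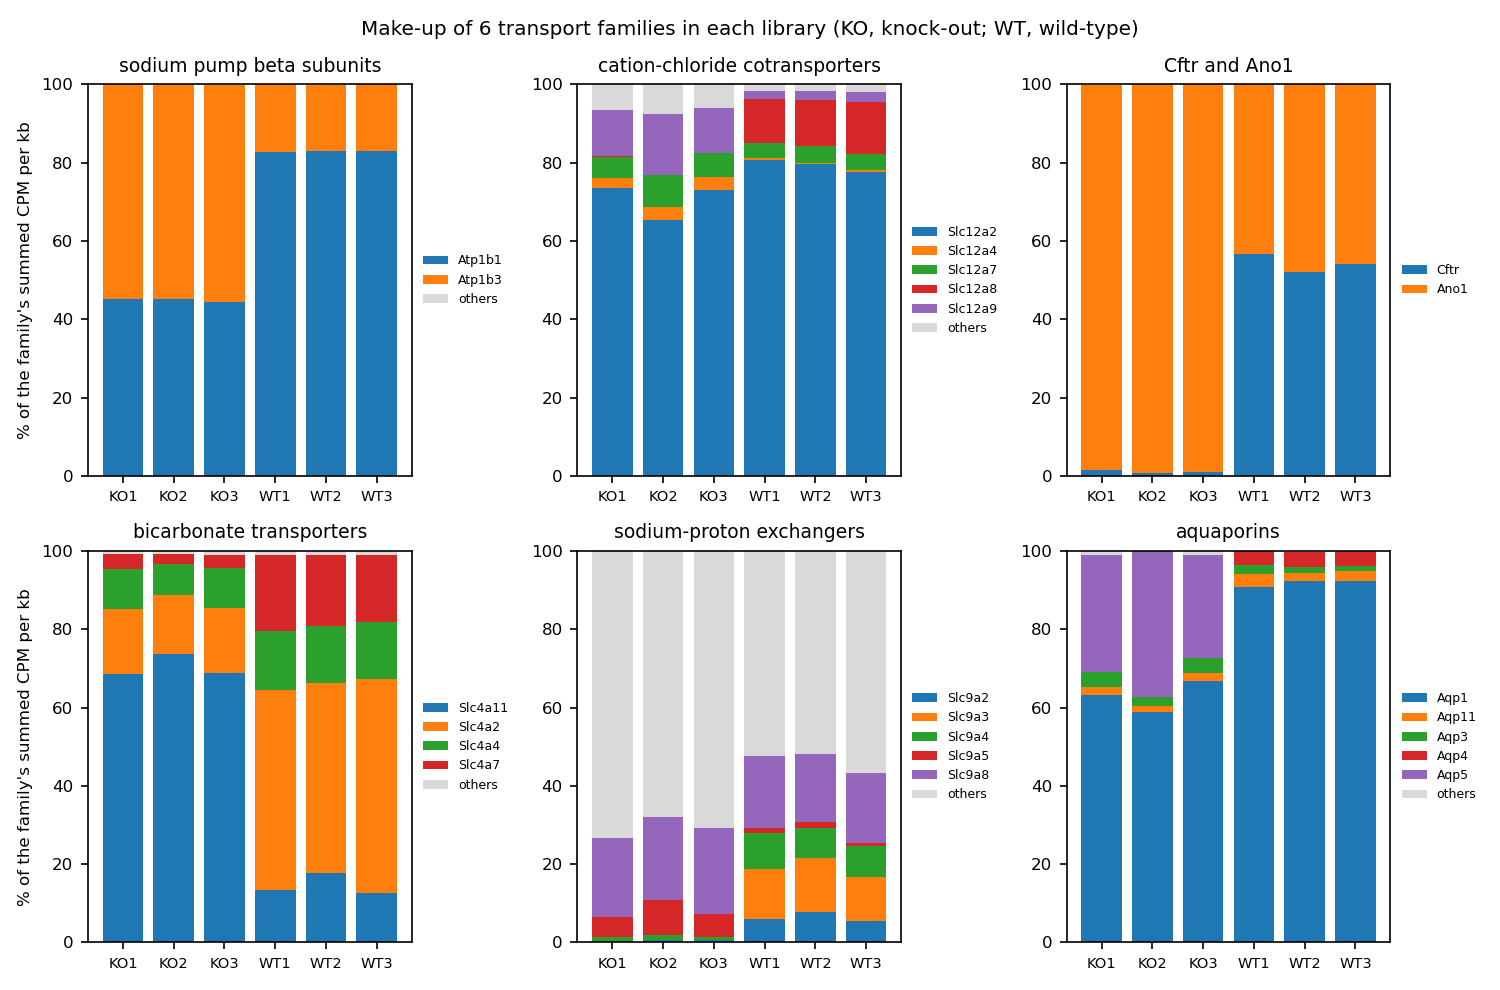
Make-up of 6 families in each library, as the percentage of the family's summed CPM per kilobase of exon (vertical axes), with the 3 knock-out libraries left of the 3 wild-type libraries in every panel and grey for the rest of a family. Atp1b3, Ano1, Slc4a11 and Aqp5 take a larger share in the knock-out libraries, where Slc12a8, Slc9a3 and Aqp4 are at or near 0.

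Of 11 Slc26 anion exchangers, 5 were tested. Slc26a3 (Dra), the chloride-bicarbonate exchanger of absorptive cells, had no count in the knock-out libraries, against 2.95, 3.24 and 2.23 CPM in the wild-type libraries, 215 counts in all. That is at least 82.7-fold lower in the knock-out (adjusted p = 1.94e-05). Slc26a9, a chloride channel and exchanger of stomach and airway epithelium, rose 33.2-fold, with 9.79, 8.68 and 11.5 CPM in knock-out and 0.335, 0.387 and 0.186 CPM in wild-type libraries (log2 5.05 ± 0.55, adjusted p = 5.93e-08). Slc26a2, the sulfate transporter, was the most abundant of the family and did not pass, with 272, 179 and 228 CPM in knock-out and 281, 279 and 233 CPM in wild-type libraries (log2 -0.22 ± 0.13, adjusted p = 0.171). The knock-out values of Slc26a2 spread widely and overlapped the wild type. Without knock-out replicate 1, the highest, the log2 value was -0.38 with an adjusted p of 0.0219. Without knock-out replicate 2, the lowest, it was -0.11 with an adjusted p of 0.315. With no filter on low counts the adjusted p of Slc26a2 was 0.0149. Slc26a11, a lysosomal sulfate and chloride transporter, had 5.75, 5.50 and 5.94 CPM in knock-out and 2.81, 4.55 and 5.05 CPM in wild-type libraries (log2 0.49 ± 0.24, adjusted p = 0.093), the closest to the threshold of those that did not pass. Slc26a6 (Pat1), an apical exchanger, had 4.55 to 8.01 CPM in knock-out and 3.92 to 6.97 CPM in wild-type libraries (adjusted p = 0.873). Slc26a1, Slc26a8 and Slc26a10 were under the filter, and Slc26a4, Slc26a5 and Slc26a7 had no count.

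Of 11 aquaporins 5 were tested, with 1 higher, 3 lower and 1 that did not pass. Aqp1, the water channel of many epithelia and endothelia, fell 3.62-fold, with 28.2, 35.9 and 36.2 CPM in the knock-out libraries, against 105, 115 and 143 CPM in the wild-type libraries (log2 -1.86 ± 0.13, adjusted p = 1.62e-07). Of the endothelial markers, Kdr and Emcn were at 0 in all libraries and Tek was lower in the knock-out, and its part in the Aqp1 result was not tested. Aqp4, a basolateral water channel, had no count in the knock-out libraries, against 9.81, 11.2 and 12.6 CPM in the wild-type libraries, and was at least 332-fold lower (adjusted p = 1.87e-07). Aqp11, an intracellular aquaporin, had 3.28, 3.29 and 4.07 CPM in knock-out and 14.3, 9.10 and 13.6 CPM in wild-type libraries (log2 -1.81 ± 0.23, adjusted p = 1.74e-05). Aqp5, the apical water channel of salivary and other glands, moved the opposite way. It had 13.2, 22.6 and 14.2 CPM in the knock-out libraries, against 0.0335, 0 and 0.408 CPM in the wild-type libraries, a fitted rise of 104-fold (log2 6.69 ± 1.13, adjusted p = 9.62e-08). Most wild-type counts of Aqp5 were in replicate 3, and without that library the log2 value was 9.41. Aqp5 made up 31.2 ± 5.66% of the aquaporin level per kilobase in knock-out and 0.0984 ± 0.146% in wild-type libraries, and Aqp1 made up 63.0 ± 3.90% and 91.8 ± 0.923%, in the same order. The summed aquaporin level was 20.3 ± 3.12 CPM per kilobase in knock-out and 50.2 ± 7.96 in wild-type libraries. Aqp3, a glycerol-permeable channel, had 1.20, 0.898 and 1.42 CPM in knock-out and 1.71, 1.31 and 1.60 CPM in wild-type libraries (adjusted p = 0.345). Aqp9 was under the filter with 24, 0 and 25 counts in the knock-out libraries and 2 over the wild-type libraries, a ratio of 21.2 (95% interval for counting error, 5.57 to 180.2). Aqp7 and Aqp12 were also under the filter, and Aqp2, Aqp6 and Aqp8 had no count. Slc14a1, the urea transporter Utb, had no count in the knock-out libraries, against 53.1, 56.8 and 67.8 CPM in the wild-type libraries. With 4585 wild-type counts it was at least 1764-fold lower in the knock-out (adjusted p = 1.43e-09). Its relative Slc14a2 had 2 counts, both in a knock-out library.

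**Figure D3:**
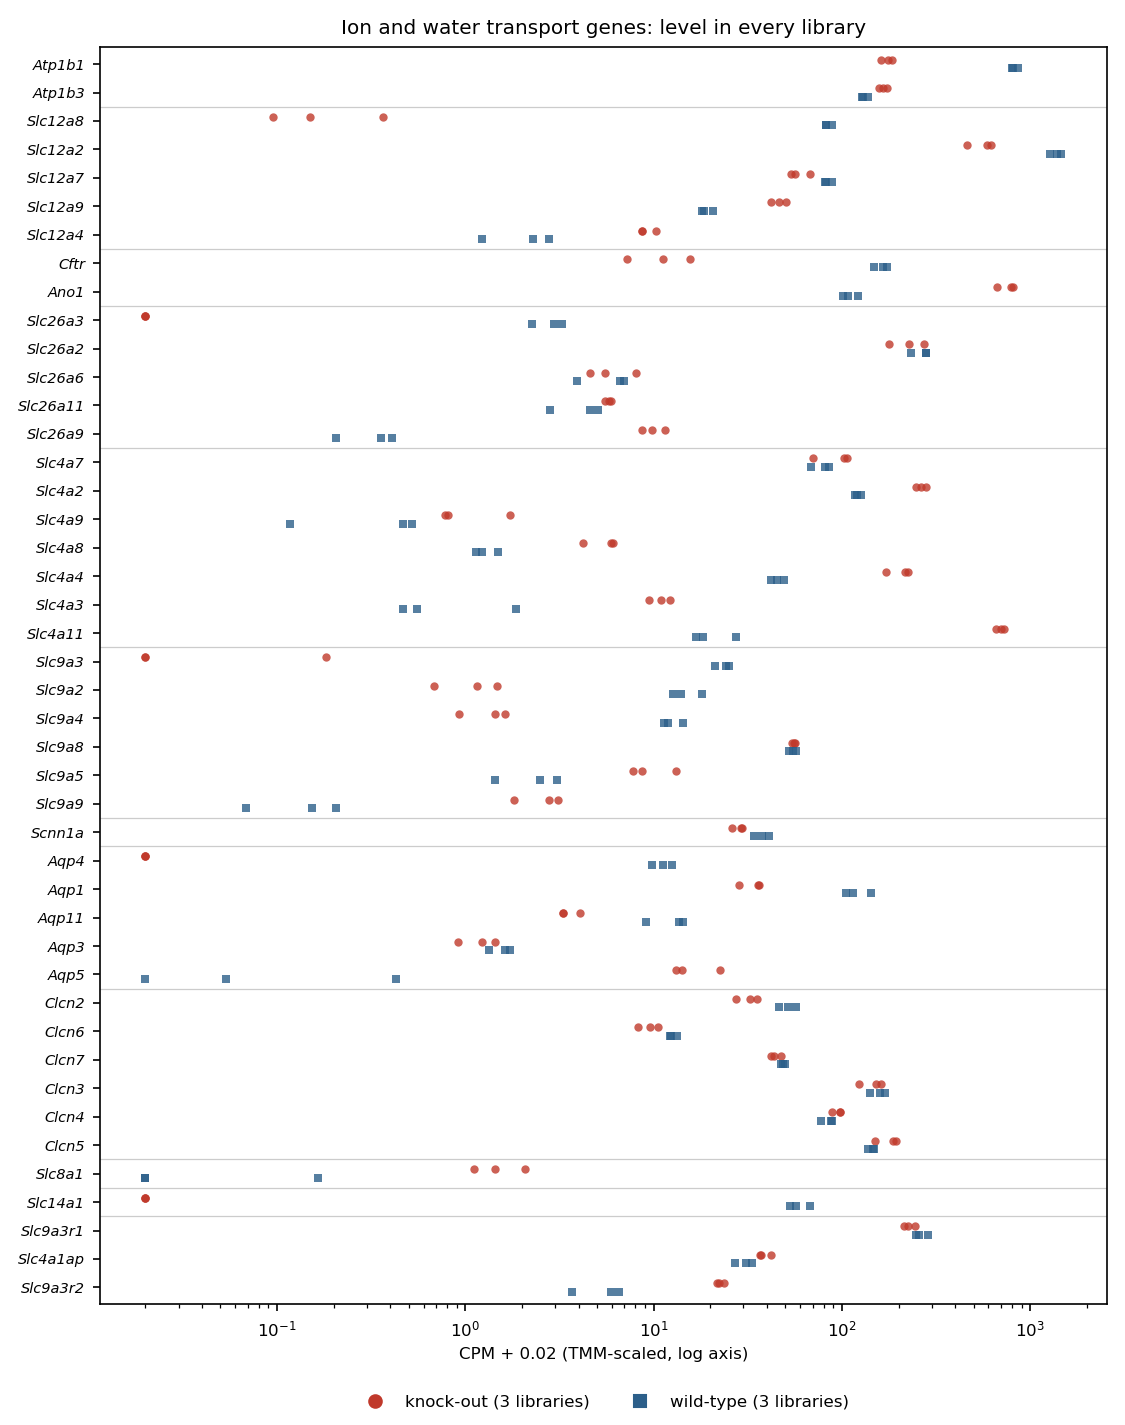
Level of 44 of the 49 tested members in every library, in CPM with 0.02 added on a log axis, ordered by role; red circles are the 3 knock-out libraries and blue squares the 3 wild-type libraries. Points at the left edge are libraries without a count, such as the knock-out libraries of Slc14a1, Aqp4 and Slc26a3.

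Sodium channel and CLC genes changed less. Scnn1a, the alpha subunit of the epithelial sodium channel, fell slightly, with 25.9, 29.0 and 29.6 CPM in knock-out and 34.1, 41.0 and 37.4 CPM in wild-type libraries (log2 -0.41 ± 0.11, adjusted p = 0.00641). The channel also needs the other subunits, and Scnn1b had 2 counts in 1 knock-out library while Scnn1g had none. Of 9 CLC genes, 6 were tested, and no change reached 2-fold. Clcn2, a plasma membrane chloride channel, fell, with 27.5, 35.3 and 32.7 CPM in knock-out and 46.0, 56.7 and 51.5 CPM in wild-type libraries (log2 -0.69 ± 0.12, adjusted p = 3.03e-04). It shares 82 exon bases with Polr2h on the opposite strand, which averaged 35.2 CPM in knock-out and 47.0 CPM in wild-type libraries. Clcn6, an endosomal exchanger, had 8.21, 9.58 and 10.6 CPM in knock-out and 13.4, 12.4 and 12.1 CPM in wild-type libraries (log2 -0.42 ± 0.15, adjusted p = 0.0319, and 0.0572 with the replicate number as a block). Its adjusted p was 0.14 without knock-out replicate 1, and 0.103, 0.0535 and 0.0546 without wild-type replicates 1, 2 and 3. With the Wald test of DESeq2 it was 0.0507. Clcn5, an endosomal exchanger on chromosome X, had 194, 150.04 and 186 CPM in knock-out and 147, 148 and 137 CPM in wild-type libraries (log2 0.30 ± 0.10, adjusted p = 0.02). Clcn5 lost the call without knock-out replicate 1 (adjusted p = 0.0973), knock-out replicate 3 (0.0761) or wild-type replicate 3 (0.0734).

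The other CLC exchangers of endosomes and lysosomes did not pass. Clcn3 had 161, 123 and 152 CPM in knock-out and 169, 158 and 141 CPM in wild-type libraries (log2 -0.10 ± 0.10, adjusted p = 0.443). Clcn4 had 97.5, 89.0 and 97.2 CPM in knock-out and 87.9, 88.3 and 77.8 CPM in wild-type libraries (log2 0.16 ± 0.08, adjusted p = 0.124). Clcn7 had 42.2 to 47.6 CPM in knock-out and 47.6 to 49.7 CPM in wild-type libraries (adjusted p = 0.23). Clcn1, the channel of skeletal muscle, was under the filter. Slc8a1, a sodium-calcium exchanger of heart and other tissues, had 1.42, 1.09 and 2.07 CPM in the knock-out libraries, against 0, 0.145 and 0 CPM in the wild-type libraries. That is 138 against 3 counts, a ratio of 39.9 (95% interval for counting error, 13.4 to 195.6), with an adjusted p of 1.6e-04. Slc8a3 was under the filter, and Slc8a2 had no count.

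Of the 3 adaptors, Slc9a3r2 (Nherf2), a scaffold that links Nhe3 to the cytoskeleton, rose 4.27-fold. It had 21.7, 23.6 and 22.1 CPM in knock-out and 3.68, 6.49 and 5.94 CPM in wild-type libraries (log2 2.10 ± 0.19, adjusted p = 9.28e-07). Slc9a3r1 (Nherf1), a related scaffold, had 224, 244 and 215 CPM in knock-out and 249, 258 and 285 CPM in wild-type libraries (log2 -0.22 ± 0.08, adjusted p = 0.0377, and 0.0786 with the replicate number as a block). The call was lost without knock-out replicate 1 or 3 (adjusted p = 0.111 and 0.154) and without wild-type replicate 2 or 3 (0.0725 and 0.166). Slc4a1ap (kanadaptin), on chromosome 5, had 36.5, 36.9 and 42.2 CPM in knock-out and 33.5, 26.9 and 30.9 CPM in wild-type libraries (log2 0.34 ± 0.11, adjusted p = 0.0222). The part of its chromosome's median of 0.388 in the Slc4a1ap result was not tested. Slc4a1ap lost the call without knock-out replicate 3 (adjusted p = 0.106) and without wild-type replicate 2 or 3 (0.0899 and 0.0514). It also lost the call with upper-quartile scaling (log2 0.28, adjusted p = 0.0514).

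**Figure D4:**
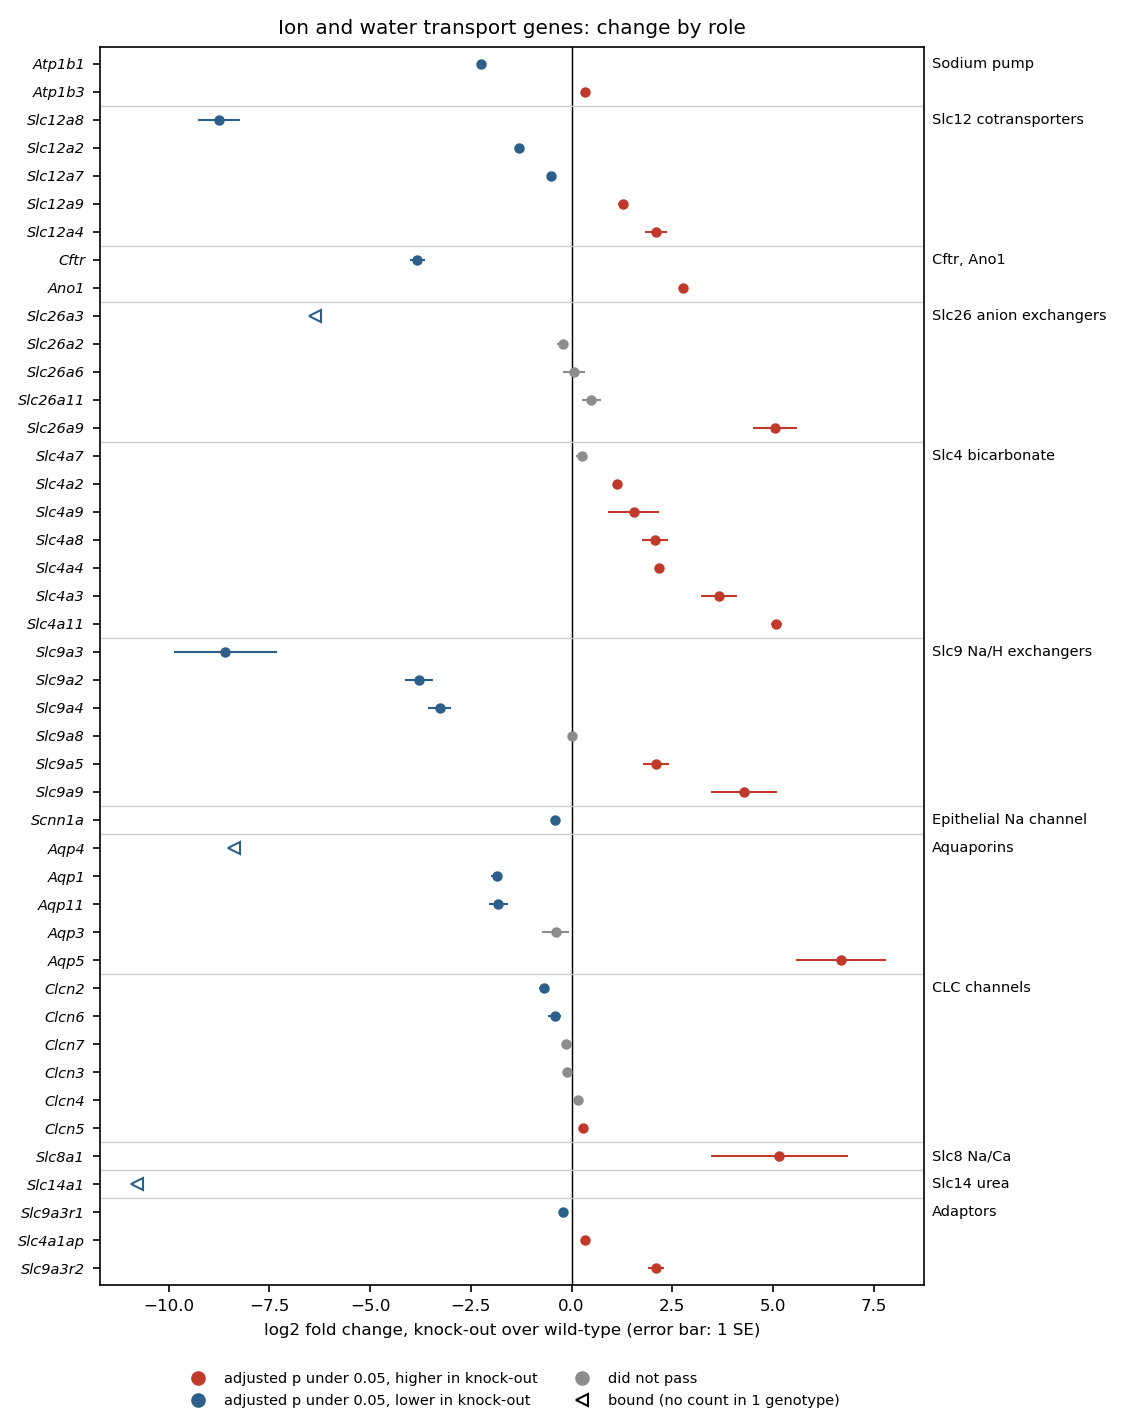
Fitted log2 fold change of 44 of the 49 tested members, knock-out over wild-type, grouped by role, with 1 standard error; red marks members higher and blue members lower in the knock-out at an adjusted p under 0.05, and grey those that did not pass. Open triangles mark the bounds of Slc26a3, Aqp4 and Slc14a1, which had no count in the knock-out, and the Slc4 block holds only positive values.

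The promoters of 4 members with large changes were read to see what sequence lies at genes that moved in opposite directions. Shown are 250 bases before the RefSeq transcription start (GRCm38.p6, each 5′ to 3′ on its gene's strand) for the genes that passed the test, reached 50 CPM and a 2-fold change, and had 1 RefSeq start with at most 30 window bases in exons, a choice made after their values were seen. Capitals mark GC boxes (GGGCGG on either strand). The Ano1 window lies inside the gene as GENCODE draws it, whose 5′ end is at 144751974, and 19 of its bases are in exons. The 2 annotations thus differ on where Ano1 starts.
Cftr at chr6:18170437-18170686, plus strand, lower in the knock-out: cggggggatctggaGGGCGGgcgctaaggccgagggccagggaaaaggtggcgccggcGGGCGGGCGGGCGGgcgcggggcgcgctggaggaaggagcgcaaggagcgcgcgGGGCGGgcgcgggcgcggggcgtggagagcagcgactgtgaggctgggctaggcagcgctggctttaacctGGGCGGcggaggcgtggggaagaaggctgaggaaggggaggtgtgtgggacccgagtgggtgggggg
Atp1b1 at chr1:164458356-164458605, minus strand, lower in the knock-out: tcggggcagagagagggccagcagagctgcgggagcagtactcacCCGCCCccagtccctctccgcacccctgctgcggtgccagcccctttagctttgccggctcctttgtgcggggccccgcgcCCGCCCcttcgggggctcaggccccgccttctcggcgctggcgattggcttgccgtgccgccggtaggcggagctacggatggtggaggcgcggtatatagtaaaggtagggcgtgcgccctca
Aqp1 at chr6:55336049-55336298, plus strand, lower in the knock-out: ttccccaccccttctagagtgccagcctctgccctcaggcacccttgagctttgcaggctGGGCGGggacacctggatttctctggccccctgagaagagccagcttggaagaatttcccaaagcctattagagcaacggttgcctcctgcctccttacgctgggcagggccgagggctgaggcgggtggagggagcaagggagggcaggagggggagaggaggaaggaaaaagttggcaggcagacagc
Ano1 at chr7:144738574-144738823, minus strand, higher in the knock-out: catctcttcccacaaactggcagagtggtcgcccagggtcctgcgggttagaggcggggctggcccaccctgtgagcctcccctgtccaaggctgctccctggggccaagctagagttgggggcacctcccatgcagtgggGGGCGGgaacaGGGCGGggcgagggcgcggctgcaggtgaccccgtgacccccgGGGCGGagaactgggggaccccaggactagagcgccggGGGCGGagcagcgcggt
GC boxes stood in genes that moved either way, with 6 in Cftr, 2 in Atp1b1, 1 in Aqp1 and 4 in Ano1, and GC content was 76.4%, 70.4%, 62.0% and 72.0% in that order. None of the other motifs searched was in these windows: an AP-1 site (TGANTCA), an NF-kB site (GGANTTTCC), a TEAD site (GGAATG), a CDX site (TTTATG) and a TATA box (TATAAA), each on both strands. RefSeq promoters were at hand for 58 of the 81 members, 16 of them higher and 11 lower. A GC box was in 10 of the 16 and 8 of the 11, against 35.4% of the 27025 genes with a RefSeq promoter. The AP-1 site was in 2 of 16 and 0 of 11 (7.82% of those genes), the NF-kB site in 0 of 16 and 0 of 11 (1.247%), the TEAD site in 1 of 16 and 2 of 11 (14.4%), the CDX site in 1 of 16 and 1 of 11 (12.4%), and the TATA box in 2 of 16 and 1 of 11 (14.3%). The members counted had passed the filter on low counts, whereas the 27025 genes were not limited to genes that passed it. The shares are therefore not a like comparison, and the matches are a description of letters in a window.

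Genes that act on these transporters were counted in 6 lists of 64 genes, of which 46 were tested, with 12 higher (26.1%) and 24 lower (52.2%), beside 30.4% and 27.0% of all genes tested. The filter on low counts acts on these lists too, so the shares describe them and nothing more is read from them. The same holds for the count of each list below, which also stands beside 30.4% and 27.0%. In the list for the guanylin and cAMP pathway, a pathway that opens Cftr, 2 of 10 tested genes rose and 6 fell. The list was not split into genes that raise and genes that lower the pathway's activity. Gucy2c, the guanylin receptor, had 0.215 ± 0.0408 CPM in knock-out and 127.6 ± 5.94 CPM in wild-type libraries (log2 -9.20 ± 0.41, adjusted p = 4.78e-13). Vipr1, a receptor for vasoactive intestinal peptide, had 0.782 ± 0.620 CPM in knock-out and 77.2 ± 7.59 CPM in wild-type libraries (adjusted p = 5.69e-10). Prkg2, the cGMP-dependent kinase that phosphorylates Cftr, had 20.9 ± 6.19 CPM in knock-out and 101 ± 6.58 CPM in wild-type libraries (adjusted p = 1.54e-07).

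Among the kinases and regulators of cotransporters and of the epithelial sodium channel, 5 of 14 tested genes rose and 7 fell. Sgk1, a kinase that raises epithelial sodium channel and Nhe3 activity, had 187 ± 29.1 CPM in knock-out and 25.1 ± 1.15 CPM in wild-type libraries (log2 2.90 ± 0.12, adjusted p = 1.11e-09). Wnk2, of the family that controls cation-chloride cotransporters, had 0.760 ± 0.775 CPM in knock-out and 34.3 ± 1.92 CPM in wild-type libraries (adjusted p = 1.35e-08). Tmprss4, a protease that can activate the sodium channel, had 135 ± 7.84 CPM in knock-out and 299.9 ± 16.3 CPM in wild-type libraries (adjusted p = 9.47e-08).

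The carbonic anhydrases, which make the bicarbonate that these proteins carry, had 1 higher and 3 lower of 6 tested. Car2, the cytosolic enzyme, had 62.2 ± 4.27 CPM in knock-out and 225.6 ± 25.96 CPM in wild-type libraries (log2 -1.86 ± 0.10, adjusted p = 9.46e-09). Car9 had 8.18 ± 3.78 and Car12 had 18.4 ± 1.90 CPM in knock-out libraries, against 52.6 ± 8.50 and 42.3 ± 2.06 CPM in wild-type libraries (adjusted p = 8.9e-07 and 1.69e-06). Both encode membrane enzymes that face outward. Of 8 tested scaffolds and binding partners, 1 rose and 5 fell, beside 30.4% and 27.0% of all genes tested. Clca1, a secreted protein of goblet cells that acts on the calcium-activated chloride current, had 0.809 ± 0.404 CPM in knock-out and 17.5 ± 4.76 CPM in wild-type libraries (adjusted p = 2.07e-07). It is also 1 of the 7 goblet cell markers above. Ahcyl1 (Irbit), which binds Nbce1 and Cftr, had 225.0 ± 12.5 CPM in knock-out and 327 ± 9.87 CPM in wild-type libraries (adjusted p = 4.52e-05).

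Of the sodium pump regulators of the Fxyd family, 3 of 7 were tested. Fxyd5 had 3.35 ± 1.12 CPM in knock-out and 0.0248 ± 0.0429 CPM in wild-type libraries (adjusted p = 1.16e-05), Fxyd6 had 0.543 ± 0.167 CPM in knock-out and 2.66 ± 0.802 CPM in wild-type libraries (adjusted p = 5.74e-04), and Fxyd3, the most abundant per kilobase of the 3, did not pass (adjusted p = 0.193). Among 5 other tested ion pumps, 2 rose and 2 fell. Atp2a3, a calcium pump of the endoplasmic reticulum, had 0.890 ± 0.299 CPM in knock-out and 14.9 ± 3.53 CPM in wild-type libraries (log2 -4.06 ± 0.40, adjusted p = 2.46e-07). Atp2a2, the widespread pump of the same kind and located on chromosome 5, had 1014 ± 88.3 CPM in knock-out and 575 ± 26.6 CPM in wild-type libraries (log2 0.82 ± 0.08, adjusted p = 3.35e-06).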

How the data were processed

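The authors deposited raw counts, 1 whole-number count per Ensembl gene and library. Per the labels' protocols, total RNA was polyA-selected and made into stranded libraries, and the submitters' processing notes name STAR and GRCm38. How reads were assigned to genes, by strand and at repeated sequence, is not given in the sources used here, so overlapping genes are named with their partners.

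Counts were tested in edgeR (4.0.16, R 4.3.3) by quasi-likelihood with genotype alone in the model, after TMM scaling and filterByExpr (minimum count 10, minimum total 15). The filter left 13759 genes, and Benjamini-Hochberg adjustment ran over all of them at a threshold of 0.05. At these depths 1 CPM corresponds to 20.7 to 31.7 counts per library. Standard errors came from the fitted weights and quasi-likelihood dispersion. Genes with no count in a genotype have a bound set at 3 counts over its pooled libraries (0.0336 CPM for knock-out, 0.0387 CPM for wild-type), and intervals cover counting error only. Levels between genes were compared per kilobase of merged exon. No pair of libraries within a genotype agreed within sampling noise. Values per library are given for members that passed with at least 5 CPM in the higher genotype, those of at least 50 CPM that did not pass, the 3 nearest to the threshold on each side and those counted in 1 genotype only, and for some others. At most 3 genes are named per list of related genes, those with the smallest adjusted p, and examples beyond these rules were chosen after their values were seen. Alternatives were other scalings and filters, DESeq2 1.42.0, limma voom (3.58.1), the older edgeR fit, the replicate number as a block, a threshold of 0.01, protein-coding genes only, leaving out each library, and leaving out chromosomes X, Y and 5 with the mitochondrial genome. The last of these and the older fit were chosen after seeing the data. The members and lists were chosen with earlier results of these data known. Promoters of members on chromosome 18 were not considered for printing. Some items are not reported here by name, and counts over the set include them.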

Additional observations from a re-analysis of the deposited data

How the results depend on the processing

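Under the 18 alternatives the number of members called higher in the knock-out ran from 15 to 23 and the number called lower from 16 to 19, against 21 and 18. The 15 came from leaving out chromosomes X, Y and 5, which hold 6 of the members called higher. Leaving out 1 library gave 18 to 23 higher and 16 to 18 lower. Of the 35 called members reported by name 30 kept the call under every alternative that tested them, and Clcn5, Clcn6, Slc4a9, Slc4a1ap and Slc9a3r1 lost it under at least 1. Of the 742 alternative fold changes of the members reported by name 708 kept direction and side of the threshold, 25 lost the call, 3 gained it and 6 changed sign. The changes of sign were all in members that did not pass and lie near 0. Slc9a8 had a log2 value of -0.04 with upper-quartile scaling and -0.00 with no filter, and -0.02 to 0.04 with 1 library left out. Slc26a6 ran from -0.21 to 0.23 with 1 library left out. The cause was not tested. Upper-quartile scaling moved the median of all genes to -0.054. Same-numbered libraries had correlations of 0.108, -0.11 and -0.19 between their deviations from the group means. Knock-out replicate 2 and wild-type replicate 3 had 0.269. These values show no pairing by replicate number, but with 3 libraries per genotype they cannot exclude it. With the replicate block, 21 members were higher and 16 lower, as Clcn6 and Slc9a3r1 lost the call, and no other call changed. Folds of members with few counts in 1 genotype are the least certain. Slc8a1 had a fitted log2 value of 5.16 that became 4.51 without wild-type replicate 1. Without wild-type replicate 2 the wild type had no count of Slc8a1, so the fitted 8.50 is not an estimate of the fold. With limma voom Slc9a3 had -9.29 and Aqp5 7.63.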
